A study of Mus musculus with 44 samples.

Results

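The 5 genes Gad1, Gad2, Prkcd, Dlk1 and Meis2, which mark inhibitory neurons and the central amygdala (CeA), were followed through fear conditioning and extinction in the ribosome-associated RNA of corticotropin-releasing hormone (Crh) neurons. The genes were chosen by name, with earlier results of these data known, and all 5 were found among the 8203 rows of the expression matrix. CRH-TRAP mice carry Cre recombinase under a Crh promoter transgene (B6;FVB-Tg(Crh-cre)1Kres/J) and a Cre-dependent reporter at Rosa26 that encodes the ribosomal protein L10a fused to eGFP, so that ribosomes of cells with active Cre, and the RNA on them, can be isolated through the eGFP tag (translating ribosome affinity purification, TRAP). All 44 mice analysed here carried both transgenes and had been habituated to the chamber. The 16 tone alone (TA) mice, 10 males and 6 females, heard 5 tones with the shock generator off. The 12 fear conditioned (FC) mice, 6 males and 6 females, received 5 pairings of the tone with a shock. The 16 extinction (EXT) mice, 10 males and 6 females, received the same pairings and, on the next day, 30 tones without shock in a different context. EXT mice were therefore killed a day later after training than FC and TA mice, and this delay cannot be told apart from the extinction session. All were adults of 10 to 16 weeks, the tissue was taken with a 1 mm punch centered over the amygdala on each side, and each mouse gave 1 sample. The pulled-down RNA was not set against the RNA of the whole punch here, so that enrichment in Crh neurons was not measured.

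The synthesis of GABA, the main inhibitory transmitter, rests on 2 glutamate decarboxylases. Gad1 encodes GAD67, which is spread through the cell and makes most of the GABA, and Gad2 encodes GAD65, which sits near synaptic vesicles and is switched on by its cofactor, pyridoxal phosphate. The neurons of the CeA are almost entirely GABAergic. Within its lateral division, protein kinase C delta (PKCδ, from Prkcd) marks a population that largely differs from the cells making somatostatin, and many Crh cells lie in the same division. Dlk1 is an imprinted gene that encodes a membrane protein related to Notch ligands and is found in many neuroendocrine cells. Meis2 encodes a homeodomain transcription factor of the TALE family that binds DNA together with Pbx partners and acts in the development of striatal and amygdala inhibitory neurons.

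In the GRCm38 assembly, Gad1 lies on chromosome 2 from 70553072 to 70602014 and Gad2 on the same chromosome from 22622205 to 22693874, both on the plus strand. Meis2 is also on chromosome 2, from 115863064 to 116065839 on the minus strand. Prkcd spans 30595354 to 30626210 of chromosome 14 on the minus strand, and Dlk1 spans 109452823 to 109463336 of chromosome 12 on the plus strand. All are protein-coding genes of GENCODE M21, and a value counts reads over the whole gene without telling transcripts apart. Because Gad1 and Gad2 moved together across mice, the stretches before their start sites that lie outside annotated exons are shown, from the RefSeq promoter table (GRCm38.p6, plus strand, at chr2:22622077-22622204 for Gad2 and chr2:70561879-70562041 for Gad1). They are given in lower case because no searched motif falls in them.
Gad2: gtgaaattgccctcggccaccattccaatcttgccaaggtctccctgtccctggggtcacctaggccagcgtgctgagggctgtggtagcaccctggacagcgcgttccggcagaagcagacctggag
Gad1: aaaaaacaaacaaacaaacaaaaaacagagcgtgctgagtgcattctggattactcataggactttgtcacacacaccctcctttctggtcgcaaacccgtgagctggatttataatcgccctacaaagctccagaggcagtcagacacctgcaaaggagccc

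All 5 genes matched the promoter table, whose windows run from 250 bases before to 50 bases after a start site. The cAMP response half-site TGACG, searched on both strands, was present once in the window of Gad2, at -33 from the start, and once in that of Dlk1, at -106, and in none of the windows of Gad1, Meis2 and Prkcd. Of 32851 windows, 20.8% hold this motif. The position of -33 is counted from the RefSeq start of Gad2. By GENCODE M21 the gene starts earlier, at 22622205, and 122 of the 250 bases before the RefSeq start are annotated exon, the match among them. Gad1 likewise starts earlier by GENCODE M21, at 70553072, so that its stretch shown above lies within the annotated gene. Of the 250 bases before the RefSeq start of Gad1, 87 are annotated exon. The Gad2 match reads CGTCA on the plus strand and is capitalized in its surroundings, at chr2:22622284-22622308.
Gad2 match: atttcccttcCGTCActctctcatc
The full palindrome TGACGTCA, which overlaps TGACG and is held by 1.79% of windows, was found in none of the 5 genes, and neither was the homeodomain core TAATTA (5.29% of windows). TGACAG, the sequence bound by Meis factors, is held by 19.2% of windows and was found once, at -69 from the second, downstream start of Prkcd. A match in these windows is a description of the letters and not evidence of binding.

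Expression is given as log2 of the counts scaled to the size of the library (log2 cpm), on which a difference of 1 is a doubling. Effective library sizes, the totals by which counts were scaled to cpm, ran from 12802113 to 20440351. They are not counts of reads, since the reads of the listed rows exceeded them in some mice (FC animal 13, 16920276 beside 16372659). Library size below means this effective size. The effective sizes ran from 14649837 to 20440351 in TA, from 13431032 to 19257786 in FC and from 12802113 to 17805609 in EXT mice. The labels give 5 batches without saying what a batch is. Batches 1, 2 and 5 hold all 3 groups, batch 3 holds 5 EXT mice only and batch 4 holds 1 EXT mouse only. In the 6 mice of batches 3 and 4, batch and extinction cannot be told apart. Groups were compared with limma with batch as a factor and sex in the model, and p values were adjusted over all 8203 rows for the false discovery rate (FDR) with a threshold of 0.05. Since the coding of batch is not named in the study's methods, the values from fits that take the batch number as a numeric covariate are given beside. Batches 3 and 4 hold no TA or FC mice, so with batch as a factor their EXT mice are not set directly against another group.

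The 5 genes differed widely in level. In cpm per kb of exons, the scale on which genes can be compared, Gad2 had a median over the 44 mice of 84.2 and Gad1 of 78.2, and the targeted gene Crh had 33.4. Meis2 followed at 20.6, Prkcd at 8.62 and Dlk1 at 4.24. The length is that of all annotated exons of a gene together, 7639 bases for Gad1 and 5876 for Gad2, whichever transcripts are present. On this scale Gad1 exceeded Gad2 in 11 of 44 mice, so the order of these neighbours was not stable, and Meis2 exceeded Crh in 8. The order of Gad2 over Gad1 also rested on the length used, since the mean log2 cpm was 9.12 for Gad1 and 8.97 for Gad2. Gad2 was above Meis2 in all 44 mice, and Prkcd above Dlk1 in 39. The order Gad2, Gad1, Crh, Meis2, Prkcd, Dlk1 held in 17 mice, and the same order with Gad1 first in 10. Among the 8005 rows with an exon length, the 2 decarboxylases lay at the 90.1 (Gad2) and 89.3 (Gad1) percentiles, Meis2 at 64.5, Prkcd at 39.5 and Dlk1 at 19.5.

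**Figure D1:**
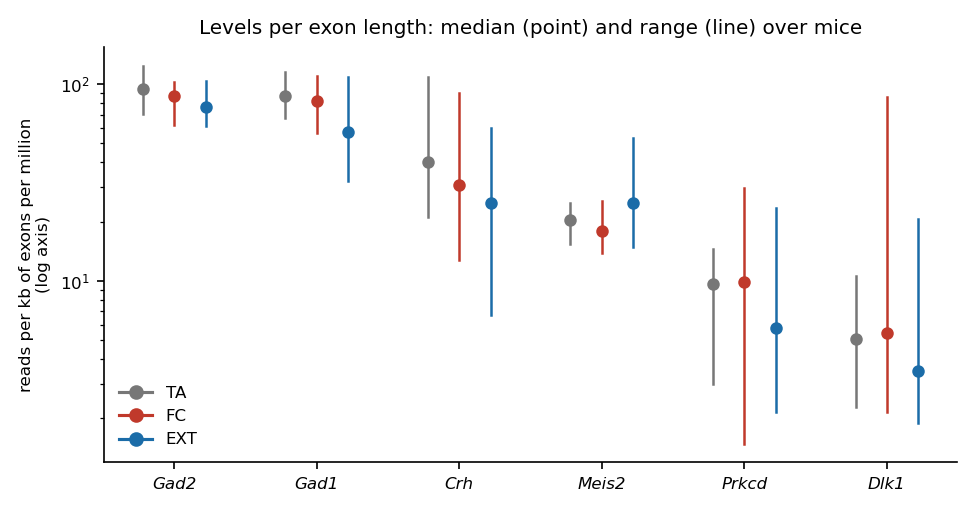
Levels per exon length of the 5 genes and Crh, in cpm per kb of exons on a log axis; points are medians and lines run from the lowest to the highest of 16 TA, 12 FC and 16 EXT mice. Gad2 and Gad1 lie highest and their lines overlap, while Prkcd and Dlk1 lie lowest and have the longest lines, those of FC mice.

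Other genes were set beside the label of a CeA sample. Of 35 genes that mark CeA or intercalated cell types, 30 were among the rows. The peptides Penk (median 1190 cpm per kb), Sst (837), Tac2 (150.1), Nts (134) and Pdyn (102) of this list were above the decarboxylases. Crh (33.4), Prkcd (8.62) and Dlk1 (4.24) of the same list were below them, and its other genes are not given on this scale. Of 12 markers of glutamatergic neurons, 5 were among the rows, and Slc17a7, a vesicular glutamate transporter, had a median of 14.0 on the same scale, above Prkcd and Dlk1. The markers of astrocytes (10 of 10) and oligodendrocytes (10 of 11) were nearly all present, and 1 of 10 microglia markers and 1 of 9 endothelial markers were. The summed cpm of the 4 choroid plexus and ependymal markers found, of 9, varied from 187 to 27465 in TA, 673 to 19373 in FC and 186 to 51048 in EXT mice, so the samples held RNA of other cells besides Crh neurons. Slc32a1, the vesicular GABA transporter, was not analysed here. In such samples a lower value of a gene cannot be told apart from fewer cells that make it.

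Gad1 was lower in most EXT mice than in TA mice. Its log2 cpm ran from 9.00 over a median of 9.38 to 9.78 in TA mice, from 8.75 over 9.29 to 9.72 in FC mice and from 7.95 over 8.77 to 9.70 in EXT mice, with 3562 reads in the lowest EXT mouse and 17929 in the highest TA mouse. Values below the TA median were found in 13 of the 16 EXT mice, of which 9 fell below every TA mouse, and the other EXT mice overlapped TA mice. The adjusted difference of EXT from TA was -0.42 ± 0.14 (SE; 0.748-fold), with p = 0.00486 and an FDR-adjusted p of 0.144. It did not pass the threshold. With the batch number as a covariate the difference was -0.61 ± 0.14 and passed (FDR-adjusted p = 0.0130), and with the library size added to the batch number it was -0.46 ± 0.19 and did not (p = 0.0220, FDR-adjusted p = 0.700).

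Gad2 covered a narrower range, from 8.69 over 9.11 to 9.51 in TA mice, from 8.51 over 9.00 to 9.23 in FC mice and from 8.49 over 8.81 to 9.26 in EXT mice. Of these EXT values 14 were below the TA median, but only 2 below every TA mouse. EXT was lower than TA by 0.24 ± 0.093 on the log2 scale in the estimate of limma, which did not pass the threshold (p = 0.0139, FDR-adjusted p = 0.159), and the difference passed with the batch number (-0.27 ± 0.085, FDR-adjusted p = 0.0261).

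**Figure D2:**
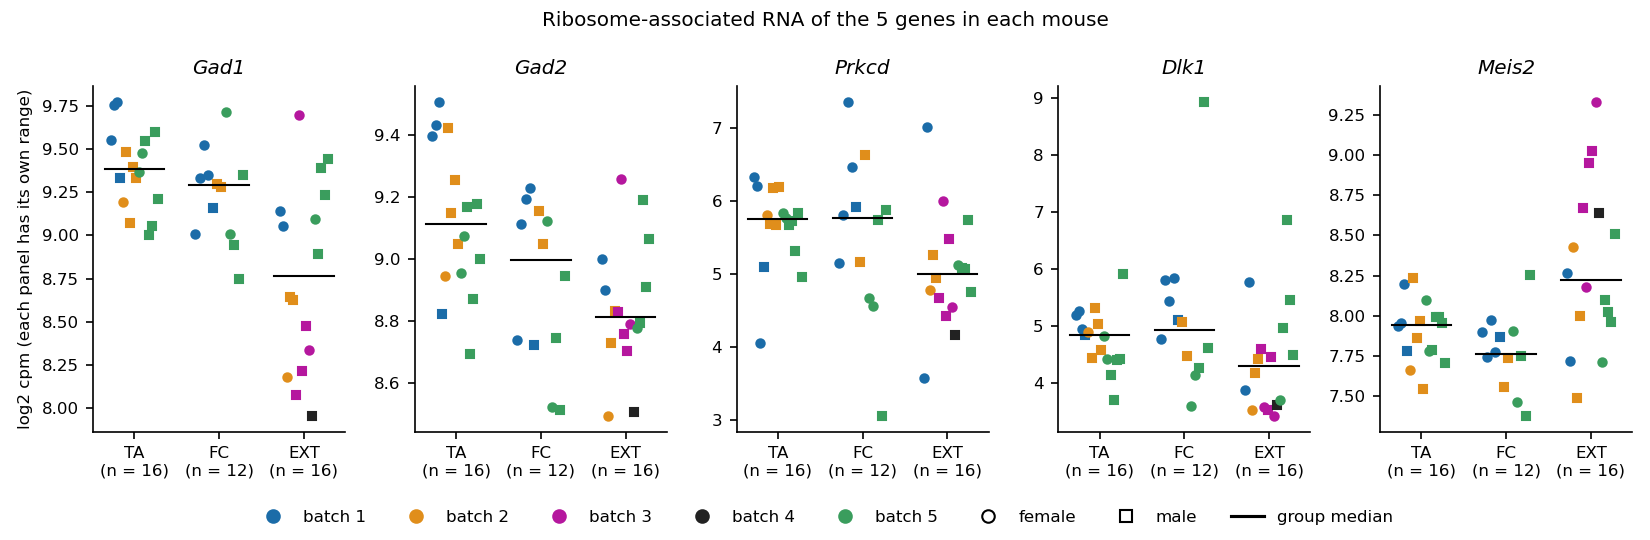
log2 cpm of the 5 genes in each of the 44 mice by group, colored by batch, with circles for females, squares for males and lines at group medians. In Gad1 9 EXT points lie below all TA points and in Meis2 8 EXT points lie above them, 5 of them of batches 3 and 4 in each gene; a single FC mouse stands at 8.93 in Dlk1.

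Prkcd, at 111 to 2995 reads per mouse, varied much more between mice than the decarboxylases. It ran from 4.05 over 5.75 to 6.33 in TA mice, from 3.05 over 5.77 to 7.36 in FC mice and from 3.58 over 5.00 to 7.02 in EXT mice. The TA median exceeded 14 of the 16 EXT values, yet 1 was above every TA mouse and 1 below. The difference of EXT from TA was -0.52 ± 0.27 (p = 0.0627, FDR-adjusted p = 0.261) and, with the batch number, -0.61 ± 0.24 (p = 0.0149, FDR-adjusted p = 0.0607), so that it passed in neither.

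Dlk1 showed the widest range of the 5 genes. Its log2 cpm ran from 3.69 over 4.84 to 5.91 in TA mice, from 3.61 over 4.93 to 8.93 in FC mice and from 3.42 over 4.29 to 6.86 in EXT mice, or from 163 to 6546 reads. The TA median exceeded 12 EXT values, 5 of which were below every TA mouse, and 1 EXT mouse lay above every TA mouse. The difference of EXT from TA was -0.01 ± 0.27 (FDR-adjusted p = 0.984) with batch as a factor, where its sign depended on the weighting of samples (0.35 with array weights), and -0.36 ± 0.26 (FDR-adjusted p = 0.315) with the batch number.

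Meis2 had higher values in most EXT mice. It ran from 7.54 over 7.95 to 8.23 in TA mice, from 7.38 over 7.76 to 8.26 in FC mice and from 7.49 over 8.22 to 9.33 in EXT mice. The TA median was exceeded by 13 of 16 EXT mice, of which 8 exceeded every TA mouse, while 1 lay below every TA mouse. The adjusted difference was 0.12 ± 0.12 (p = 0.329, FDR-adjusted p = 0.585), it was -0.09 with library size as a covariate, and it passed with the batch number (0.41 ± 0.14, FDR-adjusted p = 0.0348).

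Counted together, 4 of the 5 genes were lower and 1 was higher in EXT than in TA mice, and 2 had an unadjusted p under 0.05, both lower. Across all rows 21.1% had such a p and 0.0244% passed the FDR threshold, which none of the 5 genes did. With the batch number, 3 of the 5 genes passed, beside 21.4% of all rows, and 4 had an unadjusted p under 0.05, beside 37.8% of all rows. When library size was added to the batch number, 0 rows passed in limma and 449 had an unadjusted p under 0.05. When batches 3 and 4 were left out of the fit with the batch number, 3 rows passed and none of the 5 genes did, with differences of -0.42 in Gad1 (FDR-adjusted p = 0.0934), -0.24 in Gad2 and 0.11 in Meis2. Crh itself, the gene whose promoter drives Cre, ran from 4.80 over 5.73 to 7.17 in TA mice and from 3.15 over 5.03 to 6.31 in EXT mice, a difference of -0.32 (FDR-adjusted p = 0.399) or, with the batch number, of -0.93 (FDR-adjusted p = 0.0234).

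**Figure D3:**
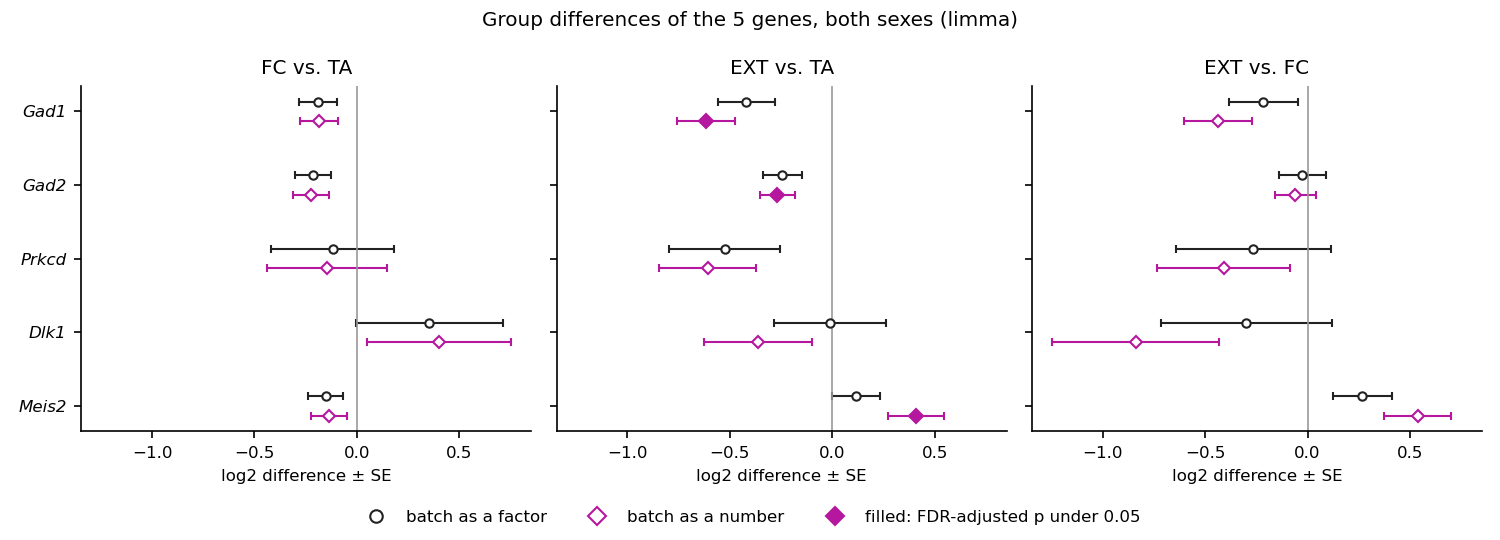
Differences between groups in log2 cpm with their standard errors for the 5 genes in FC vs. TA, EXT vs. TA and EXT vs. FC, with batch as a factor (circles) or as a number (diamonds), filled where the FDR-adjusted p was under 0.05. The only filled symbols are the diamonds of Gad1, Gad2 and Meis2 in EXT vs. TA.

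The size of the difference between EXT and TA mice varied with the batch. In batch 2, mean Gad1 was 8.48 in 3 EXT mice and 9.30 in 5 TA mice, a difference of -0.82. The difference was -0.50 in batch 1 (2 EXT and 4 TA mice) and -0.11 in batch 5 (5 EXT and 7 TA mice). The F-test of whether the EXT difference of Gad1 differed between these batches gave p = 0.00962 and an FDR-adjusted p of 0.114, beside 21.6% of all rows with an unadjusted p under 0.05 and 1.35% that passed the FDR threshold. For the other 4 genes this p was at least 0.10.

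Gad2 had the same order, with differences of EXT from TA of -0.34 in batch 1, -0.48 in batch 2 and -0.04 in batch 5. Prkcd differed by -0.13, -0.92 and -0.44 in these batches. Dlk1 was lower in EXT mice in batches 1 (-0.23) and 2 (-0.82) and higher in batch 5 (0.55), so that its direction was not shared, while Meis2 was higher by 0.02, 0.12 and 0.16. In batch 2 the exact permutation test, two-sided, gave p = 0.0357 for each of Gad1, Gad2, Prkcd and Dlk1, the smallest p that 3 against 5 mice allow. These were the only 4 of 45 such comparisons (5 genes, 3 batches, 3 pairs of groups) with a p under 0.05, and they were not adjusted for their number. Many of the 45 could not reach such a p. The smallest that the exact permutation test allows is 0.133 for 2 against 4 mice, 0.0952 for 2 against 5 and 0.2 for 3 against 2. This held for EXT vs. TA and EXT vs. FC in batch 1, and for FC vs. TA and EXT vs. FC in batch 2.

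The EXT mice of batches 3 and 4, apart from EXT animal 23, lay toward the low end of the EXT group in Gad1 and the high end in Meis2. The 5 mice of batch 3 had a median Gad1 of 8.33, from 8.07 to 9.70, and the mouse of batch 4 had 7.95, compared with a median of 9.08 in the 10 EXT mice of batches 1, 2 and 5. Meis2 had a median of 8.95 in batch 3, from 8.18 to 9.33, and 8.64 in batch 4, compared with 8.01 in the 10 EXT mice of the other batches. Gad2 was less apart, from 8.70 to 9.26 in batch 3 and 8.51 in batch 4, compared with a median of 8.87 in the other EXT mice. Without batches 3 and 4, the difference of EXT from TA in Gad1 was -0.41 and passed the threshold (FDR-adjusted p = 0.0368), beside 409 of all 8203 rows. It was likewise -0.41 and passed without EXT animal 23 (FDR-adjusted p = 0.0293), the mouse of batch 3 with a Gad1 of 9.70. In that fit 472 rows passed.

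Markers of other cells moved with these batches. The summed cpm of 10 genes of all neurons had a median of 5345 in batch 3 and was 4692 in batch 4, compared with 7895 in TA mice, and ranged from 4692 to 9381 in EXT mice. The sum over 10 oligodendrocyte markers had a median of 6558 in batch 3 and was 13471 in batch 4, compared with 3414 in TA mice. The sum over 10 astrocyte markers had a median of 2567 in batch 3 and of 1291 in TA mice. In EXT vs. TA, 9 of 10 oligodendrocyte and 5 of 10 astrocyte markers had lower estimates with batch as a factor, and 3 and 1 with the batch number. The 4 choroid plexus and ependymal markers had lower estimates in both, with medians of -0.45 and -1.13. The part of these markers in the values of Gad1 and Meis2 was not tested. Across batches 1, 2 and 5, with group and sex in the model, none of the 5 genes passed the test of a difference between batches (FDR-adjusted p from 0.124 for Gad1 to 0.681 for Meis2), whereas 55.3% of all rows did, Crh among them (FDR-adjusted p = 3.68e-05). After quantile normalization Gad1 (FDR-adjusted p = 0.0172) and Gad2 (FDR-adjusted p = 0.0252) passed it too.

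**Figure D4:**
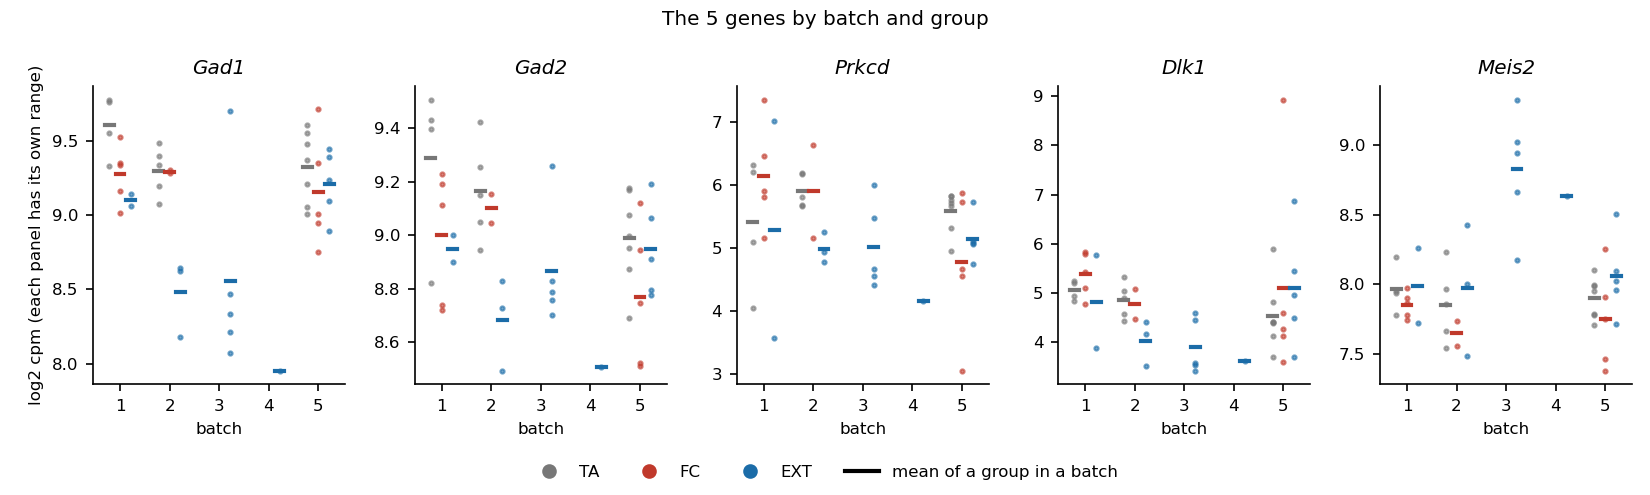
log2 cpm of the 5 genes by batch, with a point for each mouse, colored by group, and a line at the mean of each group in each batch. Batches 3 and 4 hold EXT mice only and have the highest Meis2 means, and the mouse of batch 4 has the lowest Gad1, 7.95.

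In FC vs. TA the estimates of the decarboxylases were negative as well. Gad2 was lower by 0.21 ± 0.087 on the log2 scale (p = 0.0213, FDR-adjusted p = 0.227) and Gad1 by 0.19 ± 0.092 (p = 0.0469, FDR-adjusted p = 0.290), and 7 of the 12 FC values of Gad2 and 10 of those of Gad1 were under the TA median. Meis2 differed by -0.15 ± 0.086 (p = 0.0877), with 10 of the 12 FC values under the TA median. These were the same TA mice as in the comparison with EXT, so the 2 contrasts are not independent. No gene passed the FDR threshold in limma (0% of rows), and 16.8% of all rows, and 2 of the 5 genes, had an unadjusted p under 0.05. Within batches 1, 2 and 5, Gad1 differed by -0.33, -0.00 and -0.17, Gad2 by -0.29, -0.06 and -0.22, and Meis2 by -0.12, -0.21 and -0.15, while Prkcd went from 0.72 in batch 1 to -0.80 in batch 5. With the batch number Gad2 differed by -0.22 (limma p = 0.0163) and Gad1 by -0.19 (limma p = 0.0513), and neither passed the FDR threshold. The summed astrocyte markers had a median cpm of 1931 in FC mice, from 979 to 2340, and of 1291 in TA mice, from 677 to 2745, and all 10 had higher estimates in FC vs. TA, of which 0 passed the FDR threshold in limma and 6 had an unadjusted p under 0.05. All 10 oligodendrocyte markers likewise had higher estimates (median 0.34, 1 with such a p), and all 4 choroid plexus and ependymal markers had lower ones (median -0.95, 2 with such a p). The part of these markers in the decarboxylase values was not tested.

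A single FC mouse decided the direction of Dlk1 and Prkcd after conditioning. This male of batch 5 (animal 47) had the highest Dlk1 of all 44 mice, 8.93 or 6546 reads, and the lowest Prkcd, 3.05 or 111 reads. It also had the lowest Meis2 (7.38) of all mice and the lowest Gad1 (8.75), Gad2 (8.51) and Crh (4.08) of the FC mice. The difference of FC from TA in Dlk1 was 0.35 with this mouse and -0.06 without it, and in Prkcd it was -0.12 with it and 0.11 without it.

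EXT and FC mice were compared directly as well. With batch as a factor the difference was -0.22 ± 0.17 for Gad1 (p = 0.209) and 0.27 ± 0.14 for Meis2 (p = 0.0717), and it was -0.03 for Gad2, -0.26 for Prkcd and -0.30 for Dlk1. None of the 5 genes had an unadjusted p under 0.05, beside 4.19% of all rows, and no gene passed the FDR threshold in limma (0% of rows). All 10 astrocyte markers (median -0.39, 1 with an unadjusted p under 0.05) and all 10 oligodendrocyte markers (median -0.47, 4 with such a p) had lower estimates in EXT than in FC mice, with 0 past the FDR threshold, and their part in the values of the 5 genes was not tested. In the fit with the batch number, Gad1 (-0.44, p = 0.0128), Dlk1 (-0.84, p = 0.0479) and Meis2 (0.54, p = 0.0027) had such a p, beside 19.3% of all rows, and none passed the FDR threshold. Of the 16 EXT mice, 8 were below every FC mouse in Gad1 and 8 were above every FC mouse in Meis2. The sign of the Dlk1 difference turned to 0.09 without FC animal 47, and that of Prkcd to 0.12 without EXT animal 26.

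The balance between the decarboxylases was examined as the log2 ratio of Gad1 to Gad2, which does not depend on the scaling of a sample. In batches 1, 2 and 5 its mean was 0.27 ± 0.15 (SD) in 16 TA mice, 0.31 ± 0.15 in 12 FC mice and 0.10 ± 0.23 in 10 EXT mice. EXT mice were lower than TA mice by 0.17 within batches (permutation test, p = 0.00392, adjusted over the 3 pairs of groups 0.0111) and differed from FC mice by -0.18 (permutation test, p = 0.00742, adjusted 0.0111). FC and TA mice differed by 0.02 (permutation test, p = 0.651). The ranges overlapped, from -0.31 to 0.38 in EXT mice and from -0.07 to 0.51 in TA mice. The ratio was not fitted with library size as a covariate, so its dependence on library size was not tested.

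The ratio is also given by batch. Its mean in EXT mice was 0.15 in batch 1, -0.20 in batch 2 and 0.26 in batch 5, compared with 0.32, 0.13 and 0.33 in TA mice. Without batch 2 the difference of EXT from TA was -0.10 (permutation test, adjusted p = 0.136) and that from FC was -0.12 (permutation test, adjusted p = 0.136), so that both then failed the threshold. In batch 3 the EXT mean was -0.31 and the mouse of batch 4 had -0.56.

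**Figure D5:**
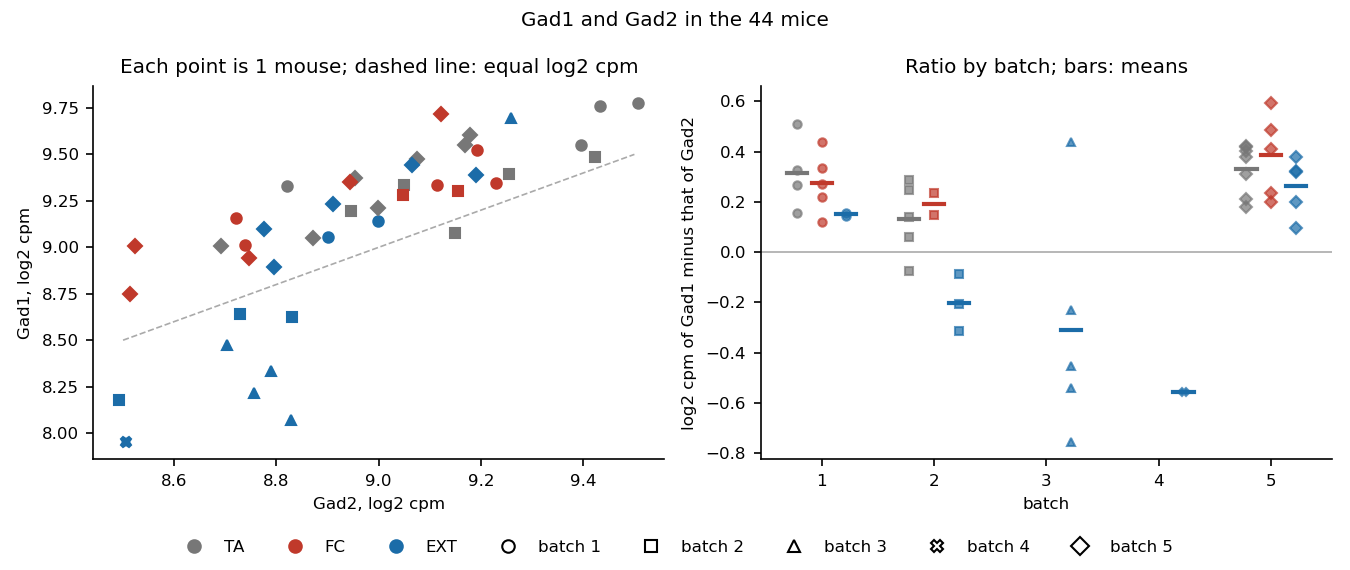
Left, log2 cpm of Gad1 against Gad2 in the 44 mice, with the dashed line at equal values; right, the log2 ratio of Gad1 to Gad2 by batch and group, with lines at means. EXT mice of batches 2, 3 and 4 lie below the dashed line except for 1 mouse of batch 3, and EXT means are lower than TA means in batches 1, 2 and 5.

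Gad1 and Gad2 rose and fell together from mouse to mouse. After the mean of each group in each batch was subtracted, the correlation over 39 mice was r = 0.793 and Spearman's rho = 0.842 (permutation test, p = 1e-05 for each, the smallest that 100000 resamples can give; adjusted over 15 pairs p = 0.00015). It was 0.779 without the 2 mice farthest from the median of Gad1, and 0.898, 0.753 and 0.916 within batches 1, 2 and 5. The other 14 pairs among the 5 genes and Crh had a smaller r. Prkcd and Crh reached r = 0.445 (permutation test, adjusted p = 0.0199), but rho was 0.352 (permutation test, adjusted p = 0.139). Their r was 0.287 without the 2 farthest mice, and 0.775, -0.07 and 0.573 within batches 1, 2 and 5. For all remaining pairs the adjusted p was 0.128 or higher. The values of a mouse come from 1 library.

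The genes whose values were most like those of a member over the 44 mice, after group, batch and sex were fitted, are given as a description. Gad1 was most like Kpna1 (r = 0.890), Adar (0.860), Pja2 (0.848), Tubb3 (0.844) and Acly (0.838), and the 99th percentile of all rows was 0.720. Gad2 was most like Gad1 (0.831), followed by Prkacb (0.775), Dclk3 (0.742), Impact (0.740) and Trim32 (0.723). Prkcd was most like Rps6ka2 (0.862), Rap1gap (0.849), Ncdn (0.837), Eepd1 (0.803) and Etv5 (0.803). Dlk1 was most like Chgb (0.810), which encodes a secretory granule protein, Crhbp (0.782), which encodes the binding protein of Crh, Gpx3 (0.758), Resp18 (0.734) and Sar1a (0.701). Meis2 was most like Necab2 (0.826), Ccm2 (0.793), Ap1ar (0.792) and Smarcd3 (0.786). The 99th percentiles for Gad2, Prkcd, Dlk1 and Meis2 were 0.616, 0.645, 0.513 and 0.635. A single mouse far from the rest can weigh heavily in such an r. FC animal 47 (Dlk1 of 8.93) and EXT animal 58 (6.86) were among the 44 mice, and the likenesses were not computed without them.

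The spread within groups set the precision of each gene. The SD of log2 cpm within a group of a batch was 0.216 for Gad2, lower than in most rows (19.9 percentile), 0.320 for Gad1 (62.5 percentile) and 0.288 for Meis2 (49.8 percentile), beside a median of 0.288 over all rows. It was 0.812 for Prkcd and 0.989 for Dlk1, ranks 68 and 30 of 8203. From the lowest to the highest mouse, Gad2 changed 2.02-fold, Gad1 3.55-fold, Meis2 3.87-fold, Prkcd 19.8-fold and Dlk1 45.5-fold. Batch explained 57.7% of the variance of Meis2 and 42.5% of that of Gad1, but 17.6% for Gad2, 16.9% for Dlk1 and 14.2% for Prkcd, beside a median of 41.5% over all rows. Group explained 30.9% for Meis2, 34.3% for Gad1, 21.9% for Gad2, 10.4% for Prkcd and 9.55% for Dlk1, beside a median of 7.93% over all rows. The shares of batch and group overlap, since batches 3 and 4 hold EXT mice only.

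Males and females were compared within the same contrasts. Sexes were taken from the labels. In females, EXT differed from TA by -0.61 in Gad1 (p = 0.0211), -0.41 in Gad2 (p = 0.0167) and -0.70 in Dlk1 (p = 0.0408) in limma, so that 3 of the 5 genes had an unadjusted p under 0.05, beside 13.8% of all rows. In males 1 of the 5 genes did, Prkcd (-0.53, limma p = 0.0134), beside 12.5% of all rows, while Gad1 differed by -0.29 (limma p = 0.0521), Gad2 by -0.16 and Dlk1 by 0.38. The difference between the sexes itself, males minus females, was largest for Dlk1, at 0.97 ± 0.48 (limma p = 0.0508, FDR-adjusted p = 0.825), and its p was 0.401 or higher for the other 4 genes. Over all groups, males differed from females by 0.61 ± 0.31 in Dlk1 (limma p = 0.0558). The difference was -0.13 ± 0.12 in Gad1, and 0.02 to 0.04 in size in Gad2, Prkcd and Meis2. With the batch number, the difference in Dlk1 was 0.34 ± 0.30 (limma p = 0.260). The highest Dlk1 values, 8.93 in FC animal 47 and 6.86 in EXT animal 58, were both those of males. The median of Dlk1 was higher in females among TA and FC mice, and higher in males among EXT mice. None of the 5 genes had an unadjusted p under 0.05 between the sexes, beside 4.13% of all rows, and no row passed the FDR threshold (0% of rows).

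The neighbours of these genes in their pathways were counted in EXT vs. TA, beside all 8203 rows, of which 4228 were higher and 3975 lower with a median of 0.01. Of 17 genes of GABA synthesis, transport and breakdown, 15 were among the rows, 5 higher and 10 lower with a median difference of -0.13. Of these, 5 had an unadjusted p under 0.05, all lower, beside 21.1% of all rows (834 higher and 899 lower), and none passed the FDR threshold. In the fit with the batch number 6 passed, all lower, beside 21.4% of all rows (854 higher and 901 lower). Among them were Gad1 and Pdxk, the kinase that makes pyridoxal phosphate, which differed by -0.40 ± 0.11 (FDR-adjusted p = 0.0168) and, with batch as a factor, by -0.24 (FDR-adjusted p = 0.186). In FC vs. TA, the same list had a median of -0.13, with 3 lower and 1 higher at an unadjusted p under 0.05, beside 16.8% of all rows. Among these 15 genes are Gad1 and Gad2 themselves. The 10 genes of all neurons also leaned lower in EXT vs. TA, 8 lower and 2 higher with batch as a factor (median -0.11). Of these, 1 had an unadjusted p under 0.05 in limma, and 0 passed the FDR threshold. With the batch number 7 were lower and 3 higher (median -0.27), and 2 passed, both lower, beside 21.4% of all rows. The part of such a shift of neuronal genes in the values of the GABA list was not tested.

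Transcription factors of forebrain GABAergic lineages numbered 19 of 29 listed. In EXT vs. TA, 11 were higher and 8 lower with a median of 0.08, and none passed the FDR threshold. The batch number fit passed 3 of the 19, all higher, a smaller share than the 21.4% of all rows. They were Tshz2 (1.13, FDR-adjusted p = 0.0130), Zfhx3 (0.51, FDR-adjusted p = 0.0295) and Foxp1 (0.50, FDR-adjusted p = 0.0484), which differed by 0.49, 0.27 and 0.34 with batch as a factor. The TALE family had 7 of 11 genes, 5 higher and 2 lower with a median of 0.12. All 7 were higher in the fit with the batch number, and 2 passed, beside 21.4% of all rows, Meis2 and Pbx4 (0.30, FDR-adjusted p = 0.0438, and 0.27 with batch as a factor).

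Of 14 protein kinase C genes and partners 12 were among the rows, 4 higher and 8 lower with a median of -0.04. In the batch number fit 2 of them passed as higher and 2 as lower, beside 21.4% of all rows, with the smallest p for Prkci (-0.45, FDR-adjusted p = 0.0169) and Pdpk1 (0.32, FDR-adjusted p = 0.0187). With batch as a factor these differed by -0.42 and 0.16. Of 22 genes of the imprinted cluster of Dlk1 and of the Notch pathway only 6 were among the rows, 4 higher and 2 lower, and none passed in either coding. The maternally expressed Meg3 of this cluster, from which Dlk1 is expressed on the paternal copy, differed by 0.58 ± 0.39 and, with the batch number, by 1.08 ± 0.41 (FDR-adjusted p = 0.0529). The 35 genes that mark CeA or intercalated cell types had 30 among the rows, 13 higher and 17 lower with a median of -0.03. The batch number fit passed 4 of the 30, all lower, a smaller share than the 21.4% of all rows, with the smallest p for Crh, Pnoc (-0.53, FDR-adjusted p = 0.0282) and Pdyn (-0.92, FDR-adjusted p = 0.0362). With batch as a factor Pnoc and Pdyn each differed by -0.21 (p = 0.199 and 0.397 in limma).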

How the data were processed

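RNA was isolated by TRAP from the amygdala punches of 44 CRH-TRAP mice, converted to libraries with the SMARTer HV and Nextera XT kits and sequenced on an Illumina HiSeq. Per the labels and the study's methods, the authors trimmed reads with Trimmomatic 0.36, aligned to GRCm38 with STAR, obtained gene counts that they normalized with edgeR and limma, required every sample to reach a minimum cpm for a gene to be kept, retained samples by behavior and outlier checks, and deposited log2 values. Fitting showed these to be log2 cpm with an offset of 0.5 reads. Whole reads (within 0.1) were recovered for 360932 of 360932 values. The lowest was 28 reads, and the median gene had 886, so for such a gene counting error is small beside the spread between mice. For values near the lowest it need not be.

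Groups, sexes and batches came from the sample labels. All 8203 rows (2 share a name) were fitted with limma 3.58.1 in R 4.3.3, lmFit and eBayes, on the groups compared, with batch as a factor and sex, two-sided, with Benjamini-Hochberg adjustment. Permutation tests used 100000 resamples, or were exact within batches, in Python 3.11.15 with numpy 2.4.6, pandas 2.3.3 and scipy 1.17.1. Levels per kb used exon lengths of GENCODE M21, matched for 8005 rows. The scripts were tested on simulated data.

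The 5 genes and all lists were chosen with earlier results of these data known. Crh is named as the targeted gene, a list gene where its FDR-adjusted p was under 0.05 in either coding of batch (the 3 smallest p of a list and contrast at most, otherwise the smallest), and the 5 genes most like each member. Markers of other cells were summed as cpm. Alternatives were the batch number or no batch term, leaving out batches 3 and 4, 1 fit of all groups, a minimum mean log2 value of 5, median centering, quantile normalization, a trended and robust prior, array weights, an offset of 5 reads, voom weights from the recovered reads, library size as a covariate, and leaving out each mouse. The batch number with library size, the batch number without batches 3 and 4, and the ratio without each batch were added after seeing the data. The 44 columns include some listed only by an animal number. The values of some genes that the naming rule covers are not reported here.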

Additional observations from a re-analysis of the deposited data

Results flagged for a closer look

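Samples far from the rest of their group were sought with Dixon's criterion in 78 groups of 4 to 10 mice, by sex and by batch, for the 5 genes and Crh. Of these, 8 values passed it, and chance flags about 1 in 20 groups. FC animal 47 gave 3 of them. Its Dlk1 of 8.93 stood apart from the FC males (next 5.11) and from the FC mice of batch 5 (next 4.61), and its Crh of 4.08 from the FC mice of batch 5 (next 5.13). EXT animal 23, a female, stood above the other EXT mice of batch 3 in Gad1 (9.70, next 8.47) and in Gad2 (9.26, next 8.83). Among EXT females, animal 28 stood apart in Dlk1 at 5.77 (next 3.88). TA animal 10, a female, had the lowest Prkcd of the TA females, 4.05 (next 5.77), and TA animal 35 had the lowest Gad2 of the TA mice of batch 1, 8.82 (next 9.40). The cause of these values was not tested.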

How the results depend on the processing

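No paired analysis was possible because the replicate numbers are animal numbers, and the groups compared share fewer than 2 of them, so no replicate block could be fitted. The 5 genes had 111 reads or more in every mouse. In EXT vs. TA, adding library size as a covariate left 384 rows below an unadjusted p of 0.05, compared with 1733 without it. Library sizes reached lower in EXT than in TA mice, so the parts of library size and group in this loss cannot be told apart. In EXT vs. TA, the 2 rows past the FDR threshold became 1755 with the batch number, 1614 with no batch term, 409 without batches 3 and 4, 3 with the batch number without batches 3 and 4, 1 with all groups in 1 fit, 1 with a minimum mean log2 value of 5, and 0 with voom weights, with library size, and with the batch number and library size together. Gad1 was -0.61 with the batch number, -0.61 with no batch term and -0.41 without batches 3 and 4, past the threshold in each. Gad2 was -0.27 with the batch number and -0.27 with no batch term, Meis2 0.41 and 0.41, and Crh -0.93 and -0.95, all past it. Dlk1 changed sign with quantile normalization (0.0169), array weights (0.35) and voom weights (0.0284), and Meis2 with library size (-0.0850). In males the batch number turned Dlk1 to -0.0464 and Crh to -0.72, and it turned the difference between the sexes of Gad1 to -0.0178. In FC vs. TA, 3 rows passed with the minimum mean, and array weights turned Prkcd to 0.000710 and Dlk1 to -0.0465. In EXT vs. FC, array weights gave 4 rows and a Dlk1 of 0.42, library size turned Gad2 to 0.0514 and Prkcd to 0.0444, and with the batch number and library size Gad2 was 0.0346. Crh was -0.73 with the batch number, -0.78 with no batch term, -0.36 with the batch number and library size, and -0.14 with the batch number without batches 3 and 4. In males the batch number turned Gad2 to -0.0241 and Crh to -0.30. Between males and females it turned Meis2 to -0.000355 and Crh to -0.22. For batches 1, 2 and 5, quantile normalization gave FDR-adjusted p values of 0.0172 for Gad1 and 0.0252 for Gad2. Without batch 2 the ratio of Gad1 to Gad2 gave -0.10 for EXT vs. TA and -0.12 for EXT vs. FC, no longer past the threshold, and without batch 5 it gave -0.000479 for FC vs. TA. With no subtraction of the mean of each group in each batch, the correlations of Gad1 were 0.446 with Prkcd, 0.167 with Dlk1, -0.445 with Meis2 and 0.619 with Crh, those of Gad2 were 0.453, 0.104, -0.0436 and 0.474, and Dlk1 gave -0.403 with Meis2 and 0.242 with Crh, and Meis2 gave -0.455 with Crh. With median-centered samples Gad2 and Dlk1 gave 0.0279. The cause of these changes was not tested.

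When each mouse was left out in turn, EXT vs. TA gave 0 to 472 rows (472 without EXT animal 23, 6 without EXT animal 58, and 0 or 1 without 19 of the other animals). Gad1 ran from -0.47 to -0.34 (past the threshold without EXT animal 23), Gad2 from -0.29 to -0.20, Prkcd from -0.80 to -0.31, Dlk1 from -0.24 to 0.13, Meis2 from 0.06 to 0.18 and Crh from -0.41 to -0.13. FC vs. TA gave 0 to 3 rows (3, 2 and 1 without FC animals 18, 43 and 19), Prkcd from -0.31 to 0.11 and Dlk1 from -0.0589 to 0.48. EXT vs. FC gave 0 rows throughout, Gad2 from -0.0745 to 0.0214, Prkcd from -0.51 to 0.12, Dlk1 from -0.49 to 0.0852 and Crh from -0.0848 to 0.20. With the batch number, Gad1 stayed past the threshold in EXT vs. TA without any of the 32 mice, Gad2 in 31 of 32 fits, Meis2 in 24 and Prkcd in 4.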
